A study of Mus musculus with 12 samples.

Results

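Notch2, the receptor on which marginal zone B cells depend, was followed with 9 other genes of the Notch pathway and the marginal zone in resting B (RB) cells given 5 kinds of stimulation. The genes were Notch2, Notch1, Dtx1, Hes1, Rbpj, Mfng, Lfng, Cd9, Cd1d1 and S1pr3, chosen by name from 50090 gene names on the array. All non-control spots carrying these gene names were taken, which gave 14 of the 61307 probes of the array. Each gene is described by its brightest probe, and the other probes are given where a gene has several. The brightest probes of all 10 genes passed the filter on dim probes.

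RNA came from RB cells of spleens of BALB/c mice aged 6 weeks. The cells were obtained by removing CD43-positive cells and non-B cells, and each of 12 single-colour arrays held 1 sample. There were 2 arrays for each of 6 conditions. Cells were left unstimulated or cultured with Pam2CSK4, a lipopeptide that engages TLR2, with anti-CD86, or with both (TLR2.CD86). The other conditions were anti-CD40, and anti-CD40 with Pam2CSK4 (CD40.TLR2). The time given is 4 h for every condition, unstimulated cells included. The anti-CD86 antibody was cross-linked with streptavidin according to the methods, and isotype-treated cells are not analysed here. By the labels all mice were female, by the methods of either sex. Neither states that the arrays of a condition came from separate mice, so that p-values measure the spread between these samples.

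Notch receptors are cut after binding a Delta or Jagged ligand on a neighbouring cell, and the freed intracellular part joins the DNA-binding protein RBPJ to switch on targets such as Hes1 and Dtx1. Fringe enzymes, among them Lfng and Mfng, add sugars to the receptor and change its response to ligands. In the mouse spleen, Notch2 acting with Delta-like 1 directs B cells to the marginal zone, where cells carry much CD1d and CD9 and are held in place by sphingosine-1-phosphate receptors, while B cells outside that zone form follicles.

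The genes measured by several probes are shown here by the opening 30 bases of each 60-base probe, because the reading for a gene rests on which stretch of its transcript was probed. Notch2 was covered by 3 probes, all carrying the same transcript identifier, and Lfng and S1pr3 by 2 each. The array's own position field gives no location for any of the 14 probes.

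Notch2, brightest probe: ccacttgaagtcttgcatagaaatgaacca

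Notch2, probe of middle brightness: tctgtggtaatctaggatgatagttttctc

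Notch2, dimmest probe: cccagagtctcctgaccaatggtcaagctc

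Lfng, brighter probe: tttggaaagctggacaatgagtgccttagt

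Lfng, dimmer probe: ctatggcatgtttgagaacaagcggaacgc

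S1pr3, brighter probe: tcactgatattaatcacacattgtacagga

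S1pr3, dimmer probe: atctcctgaggaggagacccaaggagtcac

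The genes on which most of the differences below rest had 1 probe each. Hes1 and Dtx1 report on Notch targets, and Cd9 and Cd1d1 on the marginal zone surface.

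Hes1: acactgattttggatgcacttaagaaagat

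Dtx1: tgaggattggctgctgggatggaagtcagc

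Cd9: cctgcaatgaaaggtactatatttgccaga

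Cd1d1: taatgaccatcttaggacacagtctctatg

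RBPJ binds a core of the letters TGGGAA, and RefSeq promoter windows of 300 bases (build GRCm38.p6) were available for 7 of the 10 genes. The letters were found, on either strand, in the windows of 4 genes, Rbpj, Lfng, Cd9 and S1pr3, and in 25.6% of all 32851 windows (8397 windows). The 30-base stretches around the matches in Lfng, Cd9 and S1pr3 are printed along the strand of the gene, with the matching letters in capitals. A match is a description of the letters and not of binding.

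Lfng, chr5:140607221-140607250, plus strand: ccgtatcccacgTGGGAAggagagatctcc

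Lfng, chr5:140607194-140607223, plus strand, match on the opposite strand: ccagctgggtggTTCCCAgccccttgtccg

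Cd9, chr6:125494954-125494983, minus strand: accccgagacggTGGGAAgaaggaagatgg

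S1pr3, chr13:51408619-51408648, plus strand: cggggacgtggcTGGGAAccagggcgtatc

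Levels are given as the log2 processed signal minus the 75th percentile of the same array, so that 0 is the signal of a probe brighter than 75% of the spots and 1 unit is a doubling. Levels of different genes are not compared, since each probe has its own brightness. All 9 B cell markers checked, Cd79a and Cd79b among them, were well above background on every array. The arrays lay on 2 slides. Both unstimulated and both CD40.TLR2 arrays were on slide 1, and each of the other conditions had 1 array on each slide. The median difference between both arrays of a condition was 0.072 for unstimulated and 0.085 for CD40.TLR2 cells and 0.19 to 0.30 for the conditions that spanned the slides. Values from a fit with a term for the slide, called slide-blocked here, are therefore printed beside those without it, for the wider gene lists as counts. No unstimulated array lay on slide 2, so that a difference from unstimulated cells could be seen within slide 1 alone. Anti-CD40 array 2 stood apart, with 60.6% of spots well above background against 46.6% to 55.9% on the others. Its median relative to the 75th percentile was -2.80, against -3.94 to -3.41 on the others.

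**Figure D1:**
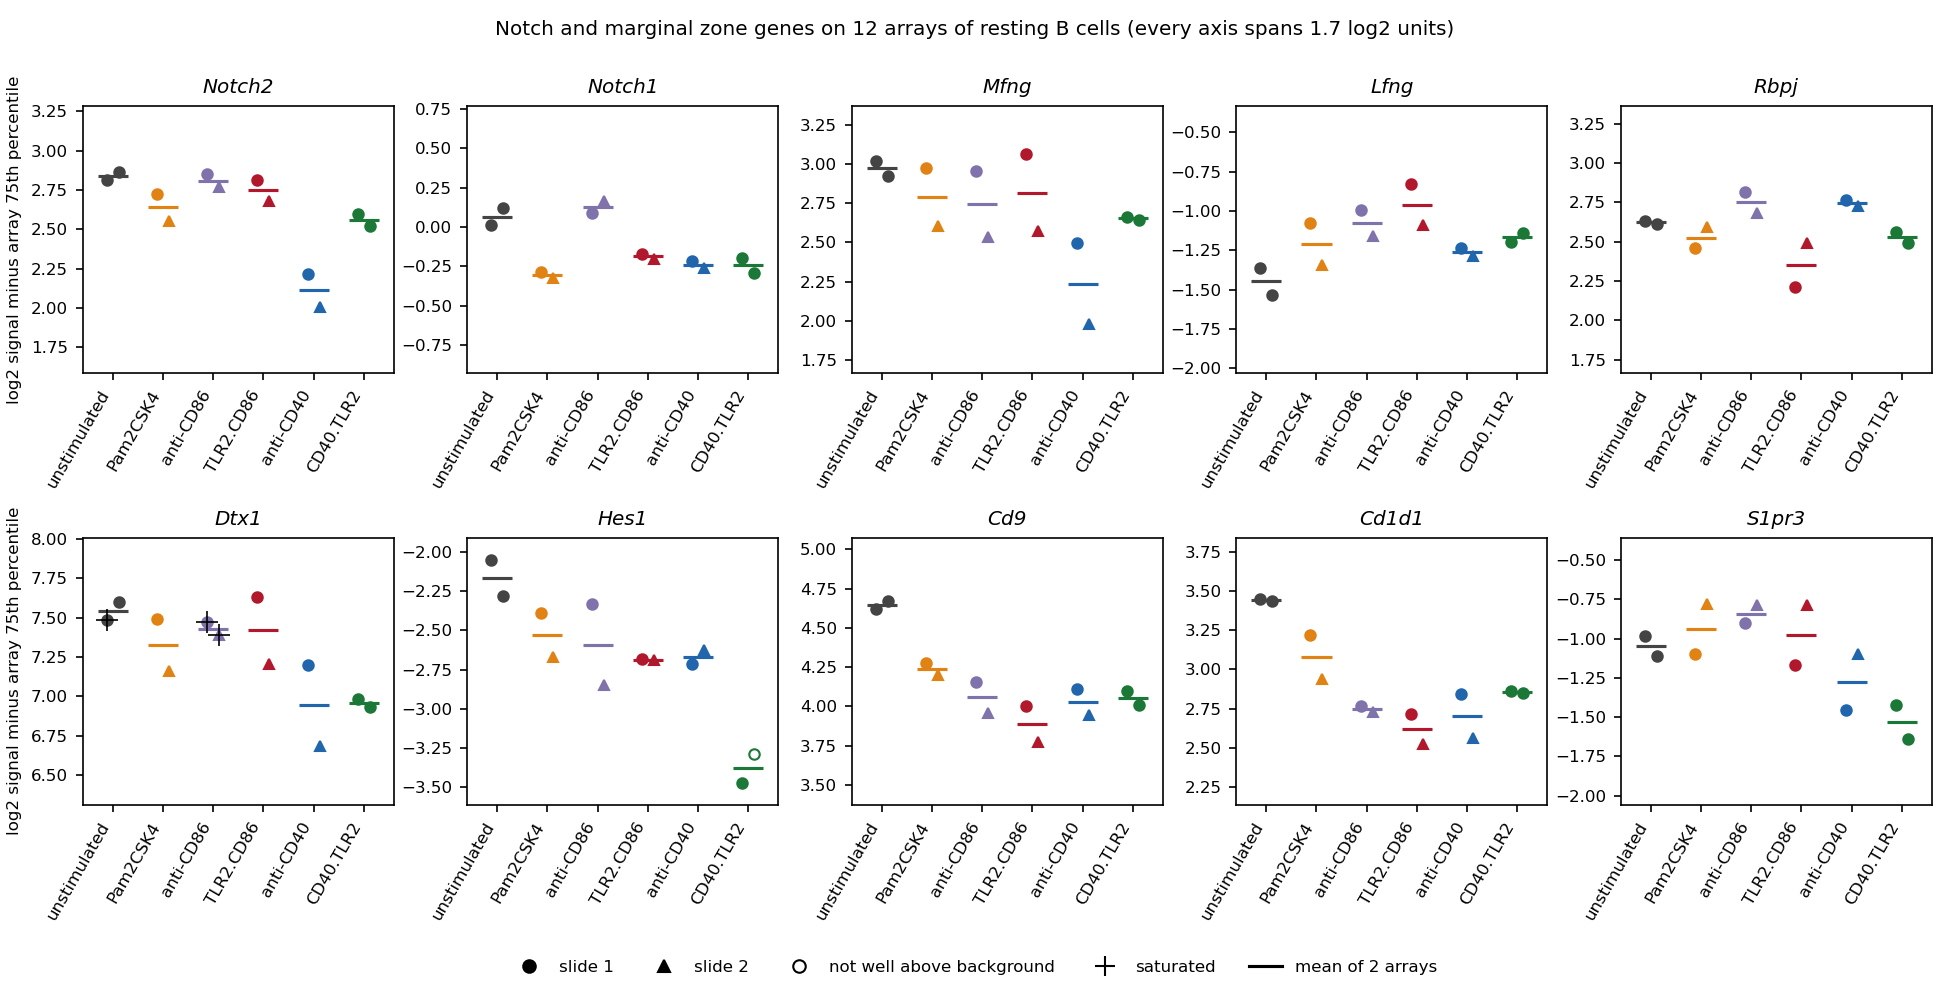
Level of the brightest probe of each gene (y axis, log2 signal minus the 75th percentile of the array, every axis spanning the same range) on each of 12 arrays by condition (x axis), with circles for slide 1, triangles for slide 2 and a line at the mean of 2 arrays. Cd9 and Cd1d1 lay lower on every stimulated array than on both unstimulated arrays, and Notch2 and Mfng were lowest on the anti-CD40 arrays.

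Cd9 and Cd1d1 were lower in most stimulated conditions, Notch2 was lower with anti-CD40, and Hes1 was lower with CD40.TLR2. A gene was called where limma's moderated test gave a Benjamini-Hochberg adjusted p under 0.05 over the 31599 probes tested. Against unstimulated cells, 0 of 10 genes were called for Pam2CSK4 and 0 for anti-CD86, with 3 genes each at an unadjusted p under 0.05, where the test called 0.136% and 2.14% of all probes. TLR2.CD86 gave 2 calls (Cd9 and Cd1d1), against 10.6% of all probes. Anti-CD40 gave 3 (Notch2, Cd9 and Cd1d1), against 16.7%, and CD40.TLR2 gave 3 (Hes1, Cd9 and Cd1d1), against 18.2%. All of these were decreases, as were most calls over all probes. Those were 1072 higher and 2286 lower for TLR2.CD86, 1943 and 3337 for anti-CD40, and 2691 and 3048 for CD40.TLR2. The median log2 difference over the 10 genes was -0.21 for Pam2CSK4, -0.072 for anti-CD86, -0.20 for TLR2.CD86, -0.55 for anti-CD40 and -0.40 for CD40.TLR2, and over all probes tested it was -0.070, -0.054, -0.029, -0.015 and 0.010 in the same order.

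In the slide-blocked fit the calls were more numerous among these genes and across the array. Of the 10 genes, 2 were called for Pam2CSK4 (10.8% of all probes), 3 for anti-CD86 (28.3%), 4 for TLR2.CD86 (34.9%), 8 for anti-CD40 (37.1%) and 9 for CD40.TLR2 (47.4%). For any difference among the 6 conditions, 4 genes were called without the block (Notch2, Hes1, Cd9 and Cd1d1; 20.1% of all probes), and 9, all but Rbpj, with it (59.9%).

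The combined signals were also set against the single ones. Hes1 was the 1 gene called for CD40.TLR2 against Pam2CSK4 (9.91% of all probes). None of the 10 was called for TLR2.CD86 against Pam2CSK4 (0.0633% of all probes; 2 unadjusted), TLR2.CD86 against anti-CD86 (0.225%; 2 unadjusted) or CD40.TLR2 against anti-CD40 (2.9%; 2 unadjusted). In the slide-blocked fit, 6 genes were called for CD40.TLR2 against Pam2CSK4 (31.4%), 2 for TLR2.CD86 against Pam2CSK4 (10.7%), 1 for TLR2.CD86 against anti-CD86 (7.54%) and 2 for CD40.TLR2 against anti-CD40 (15.0%). The interaction, which is the log2 difference of the combination minus those of its 2 parts, was called for 0 genes for anti-CD86 with Pam2CSK4 (0.019% of all probes; 0 unadjusted) and 0 for anti-CD40 with Pam2CSK4 (1.15%; 4 unadjusted). Blocked by slide it was called for 0 (0.234%; 0 unadjusted) and for 1, Notch2 (8.41%).

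**Figure D2:**
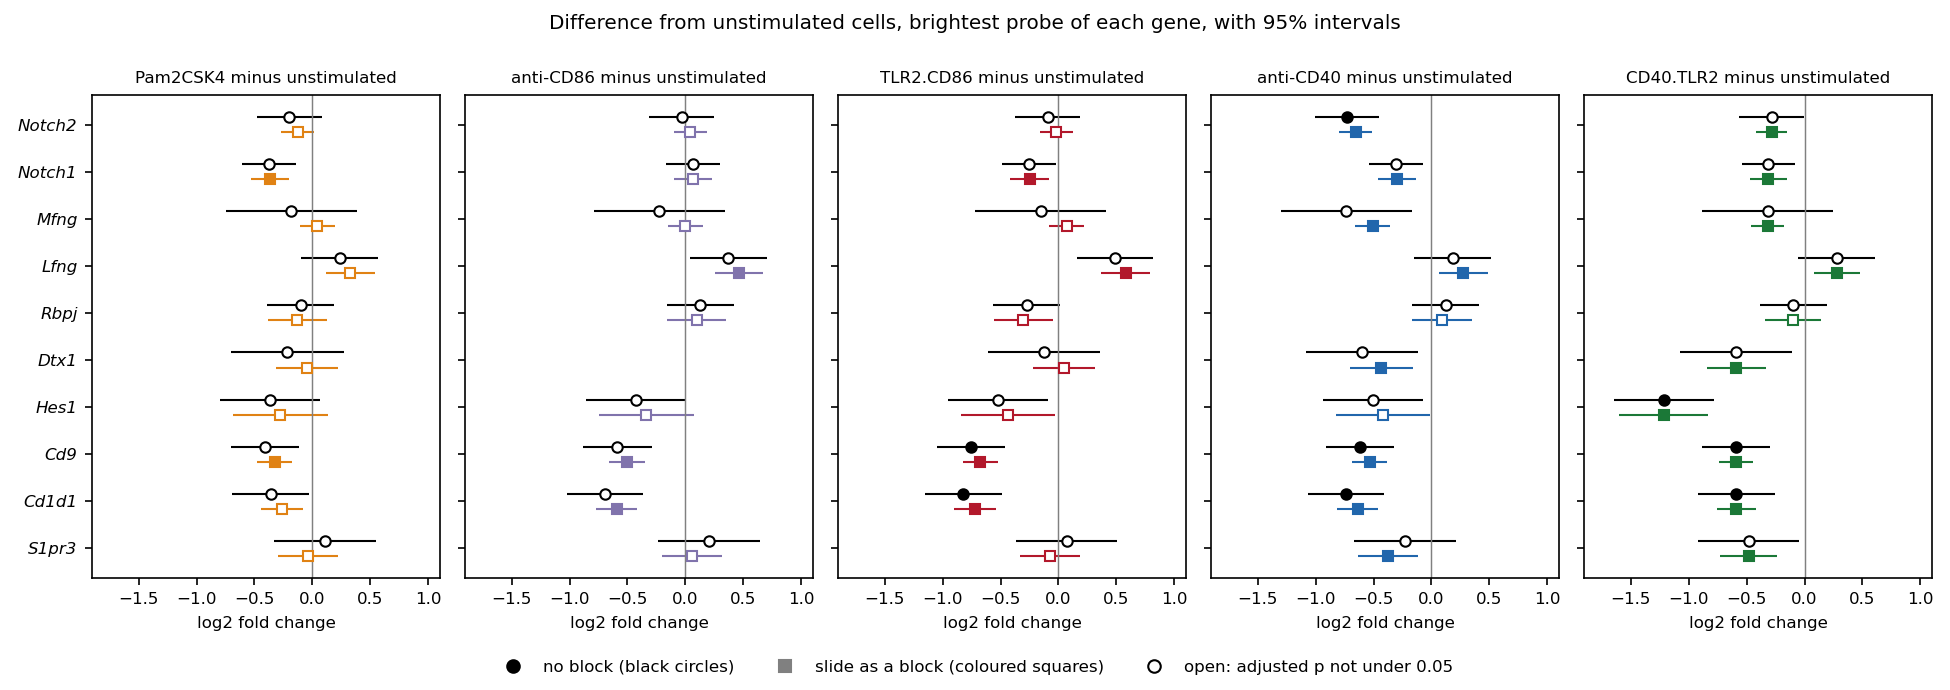
Log2 fold change of each gene from unstimulated cells (x axis) with its 95% interval for the 5 stimulations (panels), without a block (black circles) and slide-blocked (coloured squares), filled where the adjusted p was under 0.05. Cd9 and Cd1d1 lay below 0 in every panel, Notch2 was farthest below 0 with anti-CD40, and Hes1 with CD40.TLR2. Dtx1 with anti-CD86 has no point because its spots were saturated.

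Notch2, the receptor, read 2.82 and 2.86 on the unstimulated arrays, 2.85 and 2.77 with anti-CD86, 2.81 and 2.68 with TLR2.CD86, and 2.72 and 2.55 with Pam2CSK4. It read 2.60 and 2.52 with CD40.TLR2 and 2.22 and 2.01 with anti-CD40. Both anti-CD40 arrays lay below all 10 other arrays. The CD40.TLR2, Pam2CSK4 and TLR2.CD86 arrays also lay below the unstimulated ones, whereas the anti-CD86 arrays overlapped them. In the order of means, the neighbouring conditions from unstimulated down to CD40.TLR2 overlapped pairwise, and a gap of 0.45 without overlap separated CD40.TLR2 from anti-CD40.

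Notch2 fell with anti-CD40 by 0.73 on the log2 scale (1.66-fold; SE 0.12, n = 2 arrays per condition, limma adjusted p = 0.0095). The slide-blocked difference was -0.65 (adjusted p = 0.00059), and within slide 1 it was -0.62 (adjusted p = 0.027). Over 14 settings the log2 difference ran from -1.30 to -0.62 and the adjusted p from 0.00059 to 0.14. Leaving out either unstimulated array ended the call, with adjusted p-values of 0.072 and 0.085. In bulk RNA, a lower level per cell and fewer cells carrying the transcript cannot be told apart. For CD40.TLR2 the Notch2 difference was -0.28 (95% interval -0.56 to -0.0018, adjusted p = 0.15), and it passed the threshold in the slide-blocked fit (-0.28, adjusted p = 0.0072). The intervals for anti-CD86 (-0.31 to 0.25), TLR2.CD86 (-0.37 to 0.19) and Pam2CSK4 (-0.48 to 0.08) included 0.

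Adding Pam2CSK4 to anti-CD40 went with a higher Notch2 level than anti-CD40 alone. CD40.TLR2 was 0.45 above anti-CD40 on the log2 scale (SE 0.12, limma adjusted p = 0.11), and 0.37 above it once blocked by slide (adjusted p = 0.011). The interaction of anti-CD40 and Pam2CSK4 was 0.65 (SE 0.17, adjusted p = 0.13), and slide-blocked 0.50 (SE 0.09, adjusted p = 0.026). The anti-CD40 arrays spanned both slides and the CD40.TLR2 arrays did not.

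The other Notch2 probes gave part of this picture. The probe of middle brightness read 0.43 and 0.58 on the unstimulated arrays and 0.26 and -0.04 with anti-CD40, where it was again the lowest, but the difference of -0.40 had an adjusted p of 0.11. With CD40.TLR2 it read 0.31 and 0.55, which overlapped the unstimulated arrays. The dimmest probe was not well above background on 1 unstimulated, 1 anti-CD40 and both CD40.TLR2 arrays, so that it gave no level there.

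**Figure D3:**
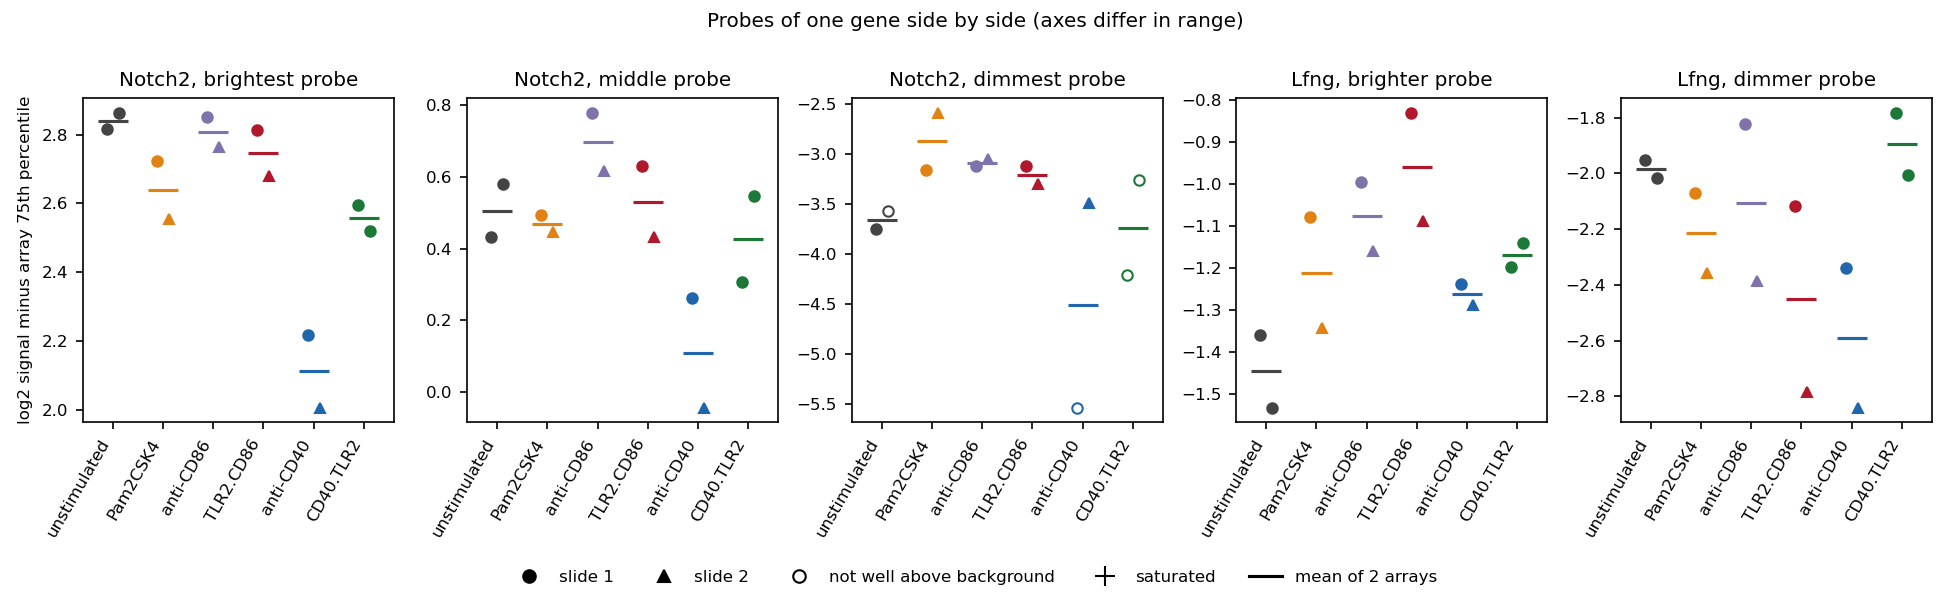
Level of each Notch2 and Lfng probe (y axis, log2 signal minus the 75th percentile of the array; axes differ) by condition, with circles for slide 1, triangles for slide 2 and open symbols for spots not well above background. The anti-CD40 arrays were lowest for both brighter Notch2 probes. The brighter Lfng probe was higher with TLR2.CD86 than in unstimulated cells and the dimmer one lower.

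Notch1, the receptor best known from T cell development, read 0.01 and 0.12 on the unstimulated arrays and 0.09 and 0.17 with anti-CD86. It read -0.28 and -0.33 with Pam2CSK4, -0.17 and -0.20 with TLR2.CD86, -0.22 and -0.26 with anti-CD40, and -0.20 and -0.29 with CD40.TLR2. All 8 arrays of these 4 conditions lay below the 4 arrays of unstimulated and anti-CD86 cells. Without a block no difference from unstimulated cells was called (adjusted p of 0.070 to 0.18 in these 4). In the slide-blocked fit Notch1 was lower with Pam2CSK4 (-0.37, adjusted p = 0.027), TLR2.CD86 (-0.25, 0.033), anti-CD40 (-0.30, 0.016) and CD40.TLR2 (-0.31, 0.0086), and lower with TLR2.CD86 than with anti-CD86 (-0.32, 0.040). Over 14 settings the adjusted p for Pam2CSK4 ran from 0.027 to 0.89 and that for CD40.TLR2 from 0.0086 to 0.94.

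Mfng, a fringe glycosyltransferase, followed Notch2 more closely than any other of these genes. It read 3.02 and 2.92 in unstimulated cells, 2.66 and 2.64 with CD40.TLR2, and 2.50 and 1.98 with anti-CD40. On slide 1 it read 2.98 with Pam2CSK4, 2.95 with anti-CD86 and 3.06 with TLR2.CD86, and on slide 2 it read 2.60, 2.54 and 2.57 for the same conditions. Every slide 2 array of Mfng was thus lower than its partner on slide 1. Both anti-CD40 arrays lay below all other arrays, by -0.73 against unstimulated cells (adjusted p = 0.075 without a block). Blocked by slide, the difference was -0.51 (adjusted p = 0.0017) for anti-CD40 and -0.32 (0.0058) for CD40.TLR2. The adjusted p for anti-CD40 ran from 0.0017 to 0.34 over 14 settings.

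Lfng, the other fringe enzyme measured, was read differently by its probes. The brighter one gave -1.36 and -1.53 in unstimulated cells and -0.83 and -1.09 with TLR2.CD86, and both unstimulated arrays lay below all 10 stimulated ones. The TLR2.CD86 difference was 0.49 (adjusted p = 0.066), and 0.58 blocked by slide (adjusted p = 0.0041; 0.0041 to 0.85 over 14 settings). Also with the block, Lfng was higher with anti-CD86 (0.46, 0.011), anti-CD40 (0.28, 0.048) and CD40.TLR2 (0.28, 0.031), although for anti-CD40 median normalization gave -0.38. The dimmer probe gave -1.95 and -2.02 in unstimulated cells and -2.12 and -2.78 with TLR2.CD86, a difference of -0.46 in the opposite direction (adjusted p = 0.30). With anti-CD40 it read -2.34 and -2.84, again below the unstimulated arrays, so that a direction for Lfng depends on the probe.

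Rbpj, the DNA-binding partner through which all Notch receptors act, read 2.21 to 2.82 over the 12 arrays. It read 2.63 and 2.62 in unstimulated cells and was lowest with TLR2.CD86 (2.21 and 2.49) and highest with anti-CD86 (2.82 and 2.69). No difference from unstimulated cells was called in either fit. The 95% intervals without the block lay between -0.56 and 0.42 for all 5 stimulations. Within slide 1, which holds 1 TLR2.CD86 array, the TLR2.CD86 difference was called (adjusted p = 0.042).

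Hes1, a transcriptional repressor switched on by Notch, was dim. It read -2.05 and -2.28 in unstimulated cells, -2.39 and -2.67 with Pam2CSK4, and -2.34 and -2.85 with anti-CD86. It read -2.69 on both TLR2.CD86 arrays, -2.72 and -2.63 with anti-CD40, and -3.47 and -3.29 with CD40.TLR2. Every stimulated array lay below both unstimulated ones, and both CD40.TLR2 arrays lay below all others. On 1 of the 2 CD40.TLR2 arrays the spot was not well above background, so that the level there is close to the limit of detection.

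Hes1 fell with CD40.TLR2 by 1.21 on the log2 scale (2.32-fold; SE 0.19, limma adjusted p = 0.0043). CD40.TLR2 was also lower than Pam2CSK4 (-0.85, adjusted p = 0.028), while its difference from anti-CD40 was -0.71 (adjusted p = 0.10; 0.027 slide-blocked). Of the calls against unstimulated cells, that of Hes1 was the 1 that held without each of the 4 arrays in turn (adjusted p of 0.026 to 0.043), whereas its call against Pam2CSK4 ended in all 4 such fits. Under normexp background correction, which adds an offset to dim signals, the difference shrank to -0.31 (adjusted p = 0.11). The other 4 stimulations gave differences of -0.36 to -0.52, none of them called (adjusted p of 0.0997 to 0.37).

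Dtx1, a ubiquitin ligase of the Deltex family and a Notch target in marginal zone B cells, lay near the ceiling of the scanner. Its spot was saturated on 1 unstimulated and both anti-CD86 arrays, which gives no fold change for anti-CD86. It read 7.49 and 7.60 in unstimulated cells, 7.49 and 7.16 with Pam2CSK4, and 7.63 and 7.21 with TLR2.CD86. It read 7.20 and 6.69 with anti-CD40 and 6.98 and 6.93 with CD40.TLR2, and on both slides anti-CD40 was lower than Pam2CSK4 and TLR2.CD86. The differences from unstimulated cells, of which 1 array was saturated, were -0.60 for anti-CD40 (adjusted p = 0.085) and -0.59 for CD40.TLR2 (adjusted p = 0.093). The slide-blocked values were -0.43 (0.024) and -0.59 (0.0047). Over 14 settings the adjusted p ran from 0.024 to 0.39 for anti-CD40 and from 0.0047 to 0.81 for CD40.TLR2.

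Cd9, a tetraspanin abundant on marginal zone and B-1 cells, read 4.62 and 4.67 in unstimulated cells. It read 4.28 and 4.2 with Pam2CSK4, 4.16 and 3.96 with anti-CD86, 4.11 and 3.95 with anti-CD40, 4.10 and 4.01 with CD40.TLR2, and 4.00 and 3.78 with TLR2.CD86. All 10 stimulated arrays lay below both unstimulated arrays, and the arrays with TLR2.CD86 held the lowest value. Cd9 fell with TLR2.CD86 by 0.76 (1.69-fold; SE 0.13, limma adjusted p = 0.017), with anti-CD40 by 0.62 (1.53-fold, 0.019) and with CD40.TLR2 by 0.59 (1.51-fold, 0.017). The difference was -0.59 for anti-CD86 (adjusted p = 0.059) and -0.41 for Pam2CSK4 (adjusted p = 0.22), and the slide-blocked fit called both (-0.50, 0.0036 and -0.32, 0.029).

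Cd1d1, which presents lipids to NKT cells and is high on marginal zone B cells, moved in the same way. It read 3.45 and 3.43 in unstimulated cells, 3.22 and 2.94 with Pam2CSK4, and 2.86 and 2.85 with CD40.TLR2. It read 2.77 and 2.73 with anti-CD86, 2.85 and 2.56 with anti-CD40, and 2.72 and 2.53 with TLR2.CD86, and no stimulated array reached the unstimulated ones. Cd1d1 fell with TLR2.CD86 by 0.82 (1.77-fold; SE 0.14, limma adjusted p = 0.018), with anti-CD40 by 0.74 (1.67-fold, 0.015) and with CD40.TLR2 by 0.59 (1.5-fold, 0.026). The differences for anti-CD86 (-0.69, 0.054) and Pam2CSK4 (-0.36, 0.29) were not called. Their slide-blocked adjusted p was 0.0035 and 0.071. Against Pam2CSK4 alone, TLR2.CD86 was lower by -0.46 for Cd1d1 (adjusted p = 0.33; 0.017 with the block) and by -0.35 for Cd9 (0.40; 0.021 with the block).

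The calls of Cd9 and Cd1d1 rested on both unstimulated arrays. Without either of them the adjusted p of their 3 called differences was 0.089 to 0.14. Without TLR2.CD86 array 2 it was 0.086 and 0.094, without anti-CD40 array 2 it was 0.087 and 0.072, and without either CD40.TLR2 array it was 0.074 to 0.13. Over 14 settings the adjusted p for TLR2.CD86 ran from 0.0011 to 0.50 for Cd9 and from 0.0014 to 0.47 for Cd1d1, and each log2 difference stayed negative.

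Some lists of markers of other cell types also read lower on all stimulated arrays. Cd9 is also carried by platelets and myeloid cells. The summed linear signal of 8 platelet markers, in multiples of the array's 75th percentile, was 5.33 to 5.83 in unstimulated cells and 3.05 to 4.59 on the stimulated arrays. For 10 myeloid markers it was 471 to 503 against 326 to 467, for 10 T cell markers 30.7 to 30.9 against 20.1 to 28.2, and for the 7 of 8 liver markers on the array 7.02 to 7.17 against 0.434 to 5.67. All platelet, myeloid and T cell markers were well above background on at least 1 unstimulated array. Neither the 8 dendritic cell markers (5.97 to 6.00 in unstimulated cells, 4.71 to 10.3 on the other arrays, Cd209a not well above background on any) nor the red cell markers (88.6 to 88.9 against 61.0 to 109) were lower on all stimulated arrays. The 9 B cell markers summed to 515 to 566 in unstimulated cells. With anti-CD86 they gave 467 to 509 and with CD40.TLR2 641 to 700, and the other conditions overlapped the unstimulated arrays. A linear sum follows its brightest markers most. The 10 endothelial and stromal markers summed to at most 1.00 and the pancreas markers to at most 1.44 on any array. The part of these cells in the Cd9 and Cd1d1 differences was not tested.

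S1pr3, a sphingosine-1-phosphate receptor of marginal zone B cells, read -0.98 and -1.11 in unstimulated cells and -1.42 and -1.64 with CD40.TLR2, whose arrays lay below both. With anti-CD40 it read -1.45 on slide 1 and -1.10 on slide 2, and with Pam2CSK4 -1.10 and -0.78, the slide 2 array being the higher in every condition that spanned the slides. The CD40.TLR2 difference was -0.48 (adjusted p = 0.12), and in the slide-blocked fit S1pr3 was lower with CD40.TLR2 (-0.48, 0.0087) and anti-CD40 (-0.37, 0.035). The adjusted p for CD40.TLR2 ran from 0.0087 to 0.85 over 14 settings. The dimmer probe was not well above background on any array and was not tested.

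**Figure D4:**
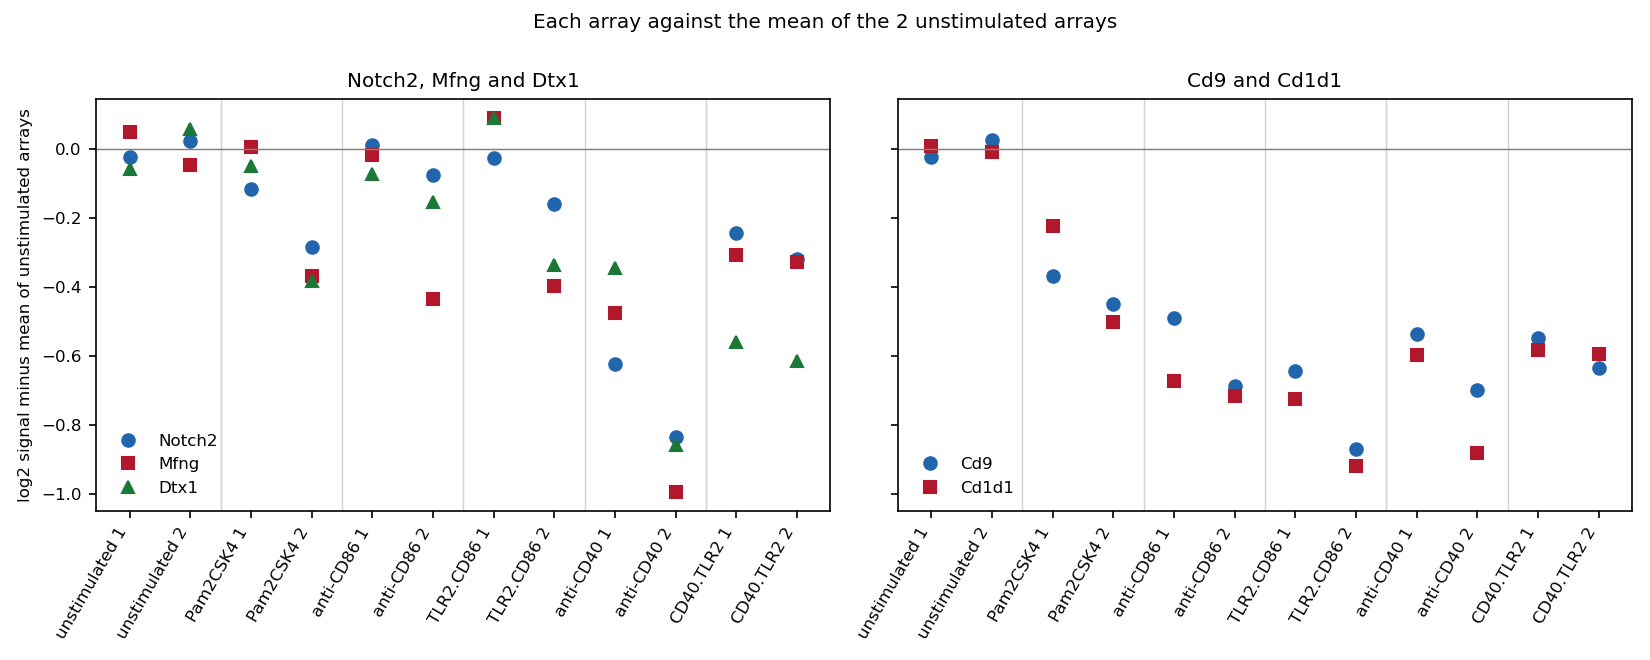
Level of each array minus the mean of the 2 unstimulated arrays (y axis, log2) for Notch2, Mfng and Dtx1 (left) and Cd9 and Cd1d1 (right), ordered by condition and array (x axis). On the left the anti-CD40 and CD40.TLR2 arrays lay below 0. So did array 2 of Pam2CSK4, anti-CD86 and TLR2.CD86, each on slide 2, whereas TLR2.CD86 array 1, on slide 1, lay near 0. On the right all stimulated arrays lay below 0. Dtx1 is drawn at its measured signal, saturated on unstimulated array 1 and both anti-CD86 arrays.

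The genes formed different orders across the conditions. Over the 12 arrays, which share slides and stimulations, Pearson's r between Cd9 and Cd1d1 was 0.96, and 0.95 after the mean of each slide was removed. Notch2 correlated with Mfng at 0.87 (0.93 after removal of slide means) and with Dtx1 at 0.83 (0.80), but with Cd9 at 0.40 (0.29), Cd1d1 at 0.44 (0.33), Hes1 at 0.31 (0.31) and Rbpj at -0.33 (-0.29). S1pr3 correlated with Notch2 at 0.36 before and 0.76 after removal of slide means. The brighter Lfng probe ran against Cd9, with r of -0.62 and -0.80. The dimmer Lfng probe, which went the other way with TLR2.CD86, was not correlated here.

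Among 13293 named genes that were well above background and unsaturated on all 12 arrays, the 5 whose level was most like that of Notch2 over the 12 arrays were Cnnm1, a member of the cyclin M family (r = 0.985), L3mbtl3, a chromatin-binding MBT protein (0.978), Glcci1 (0.976), Zzef1 (0.973) and Tle1, a Groucho corepressor (0.969). After removal of slide means they were Ikzf1, which encodes the transcription factor Ikaros (0.985), Cnnm1 (0.984), L3mbtl3 (0.982), Brd3, a bromodomain protein (0.980), and Glcci1 (0.978). These values describe likeness over 12 arrays and carry no test.

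The rest of the Notch pathway was read from 4 lists that hold none of the 10 genes. Their counts stand beside shares of all probes of 10.6% for TLR2.CD86, 16.7% for anti-CD40 and 18.2% for CD40.TLR2. In the slide-blocked fit these shares were 34.9%, 37.1% and 47.4%. The receptors Notch3 and Notch4 and 6 ligands gave no call for TLR2.CD86 in either fit. For CD40.TLR2, 1 of 8 was higher and 2 lower, and 2 higher and 2 lower in the slide-blocked fit. Dll3, an atypical Delta-like ligand, rose with CD40.TLR2 by 1.21 (limma adjusted p = 0.00064) and with anti-CD40 by 1.28 (0.0012). The ligand Jag1 fell by 0.77 (0.0089) and 0.65 (0.023), although its spot was well above background on 1 of the 2 CD40.TLR2 arrays. For Jag2, the CD40.TLR2 difference of -1.30 (0.045) rested on unstimulated arrays that read -0.97 and -2.26. Without unstimulated array 1 it was -0.66 (0.17), without unstimulated array 2 it was -1.94 (0.0092), and without either CD40.TLR2 array its adjusted p was 0.19 and 0.12.

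Of 15 tested genes for receptor cleavage and modification, 5 were higher and 2 lower with CD40.TLR2, 1 higher and 3 lower with anti-CD40, and 1 lower with TLR2.CD86. The slide-blocked counts were 5 and 4, 3 and 7, and 4 and 3 in the same order. Adam17, a protease that cuts cell surface proteins, rose with CD40.TLR2 by 1.14 (adjusted p = 0.0044), as did Pofut1, the enzyme that adds O-fucose to Notch (0.75, 0.024). Adam10, of the same protease family, was called lower with anti-CD40 in both fits and with CD40.TLR2 in the slide-blocked fit. Psen2, a catalytic subunit of gamma-secretase, fell by 0.79 (0.0088), and Ncstn, another subunit, by 0.44 (0.042). Aph1a, also a gamma-secretase subunit, rose by 0.94 with CD40.TLR2 (0.0023) but fell by 0.96 with anti-CD40 (0.0042) and by 0.90 with TLR2.CD86 (0.011).

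Of 13 tested nuclear cofactors, without the block 0 were higher and 3 lower in each of TLR2.CD86 and CD40.TLR2, and 0 higher and 4 lower with anti-CD40. The slide-blocked fit called 2 higher (Crebbp and Spen) and 4 lower with TLR2.CD86, 1 higher (Maml2) and 5 lower with CD40.TLR2, and 2 higher and 5 lower with anti-CD40. Kat2b, a histone acetyltransferase, fell with CD40.TLR2 by 1.08 (adjusted p = 0.011), the corepressor gene Cir1 by 0.84 (0.0028) and the histone deacetylase gene Hdac1 by 0.72 (0.0067). With TLR2.CD86, Hdac1 fell by 0.58 (0.030), Snw1 by 0.51 (0.035) and Maml1, a coactivator that binds Notch and RBPJ, by 0.47 (0.042).

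Of 10 tested further targets and regulators, 2 were higher and 3 lower with CD40.TLR2, 1 higher and 2 lower with anti-CD40, and 1 lower with TLR2.CD86. Blocked by slide, the counts were 2 and 4, 2 and 3, and 2 and 2 in the same order. Hes5 and Hey1, repressors of the same family as Hes1, fell with CD40.TLR2 by 1.23 (adjusted p = 0.0019) and 1.05 (0.0026). With anti-CD40 they fell by 1.56 (0.0017) and 0.62 (0.026). With TLR2.CD86, Hey1 fell by 1.03 (0.011), and Hes5 gave -0.24 (0.33). Myc, a regulator of growth that is a Notch target in T cells, rose with CD40.TLR2 by 2.29 (0.00024) and with anti-CD40 by 1.60 (0.0025). Dtx3l rose by 0.79 (0.032) and Dtx4, a relative of Dtx1, fell by 0.66 (0.036) with CD40.TLR2.

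**Figure D5:**
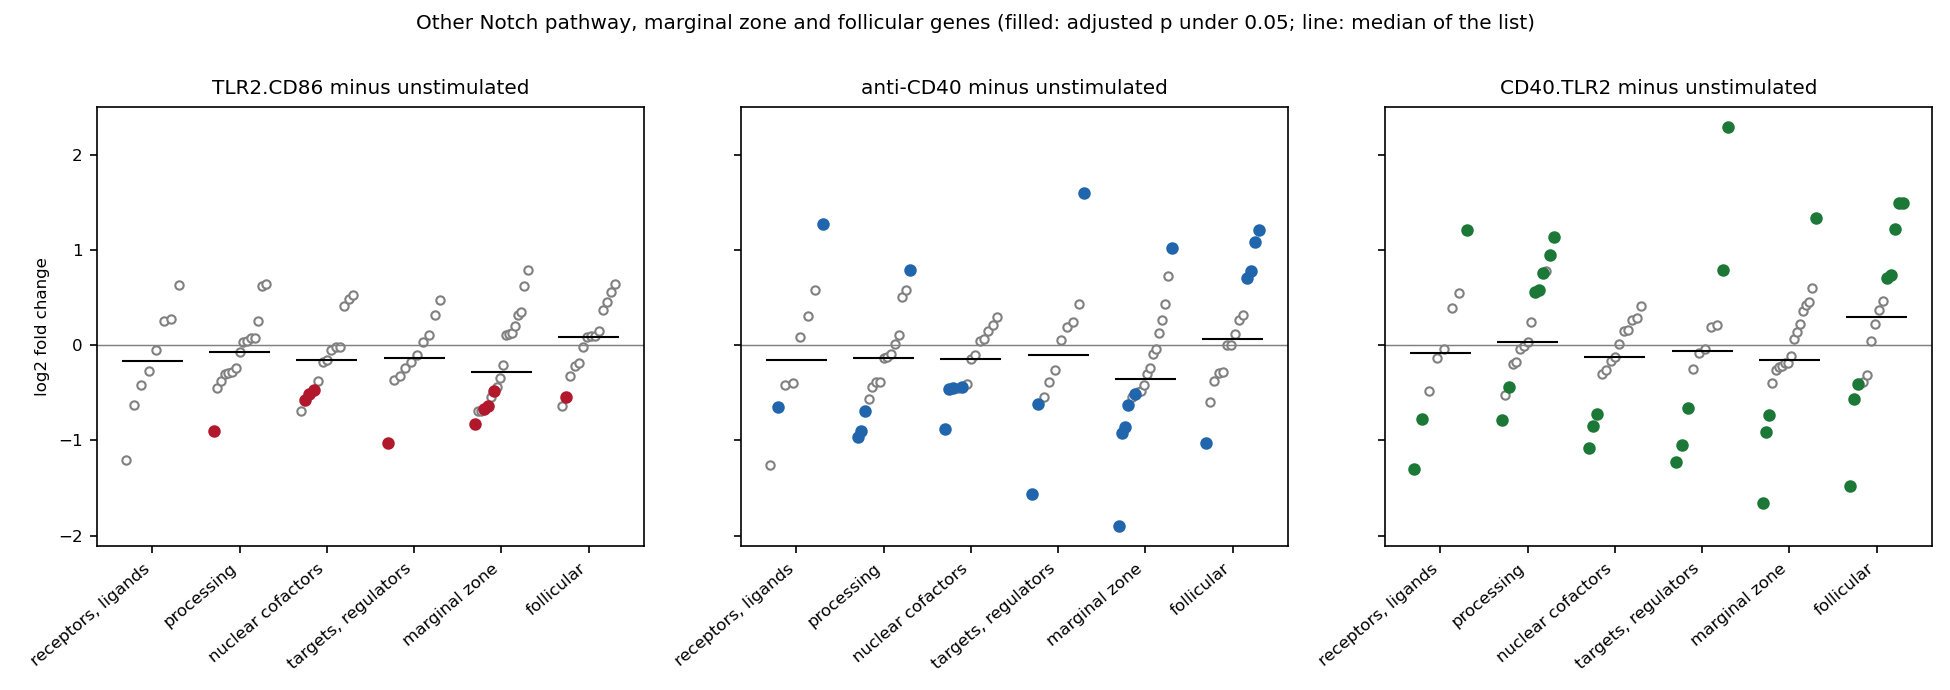
Log2 fold change from unstimulated cells (y axis) of every tested gene in 4 Notch pathway lists, a marginal zone list and a follicular list (x axis) for TLR2.CD86, anti-CD40 and CD40.TLR2, without a block. Filled points had an adjusted p under 0.05 and lines are the medians of the lists, which lay between -0.36 and 0.30.

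Of 18 tested further marginal zone genes, without the block 0 were higher and 4 lower with TLR2.CD86 (10.6% of all probes called), 1 higher and 5 lower with anti-CD40 (16.7%), and 1 higher and 3 lower with CD40.TLR2 (18.2%), with medians of -0.28, -0.36 and -0.15. The slide-blocked fit called 4 higher (Fcrl5, Asb2, Ptk2b and Itgb2) and 8 lower with TLR2.CD86 (34.9% of all probes), 1 and 9 with anti-CD40 (37.1%), and 3 and 8 with CD40.TLR2 (47.4%), with medians of -0.096, -0.25 and -0.15. S1pr1, the receptor with which S1pr3 shares its ligand, fell with anti-CD40 by 1.90 (limma adjusted p = 0.0012), with CD40.TLR2 by 1.66 (0.00080) and with TLR2.CD86 by 0.67 (0.044). Taok3, a kinase needed for marginal zone commitment, fell by 0.86 (0.012), 0.91 (0.0060) and 0.63 (0.040), and Plac8, saturated on 1 unstimulated array, by 0.92 (0.0051), 0.73 (0.0066) and 0.48 (0.048) in the same order. Cd36, a scavenger receptor, fell with TLR2.CD86 by 0.82 (0.017). Fcrl5, an Fc receptor-like protein, rose with CD40.TLR2 by 1.33 (0.0051) and with anti-CD40 by 1.02 (0.020).

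Without the block, the follicular list of 14 genes gave 0 higher and 1 lower with TLR2.CD86 (10.6% of all probes called), 4 higher and 1 lower with anti-CD40 (16.7%), and 5 higher and 3 lower with CD40.TLR2 (18.2%). The slide-blocked fit called 5 higher (Ccr7, Fcer2a, Cxcr5, Klf3 and Zfp318) and 3 lower with TLR2.CD86 (34.9% of all probes), 7 and 4 with anti-CD40 (37.1%), and 8 and 5 with CD40.TLR2 (47.4%). Fcer2a, which encodes CD23, rose with CD40.TLR2 by 1.49 (limma adjusted p = 0.0012) and with anti-CD40 by 1.21 (0.0054). Cxcr5, the receptor that draws B cells to follicles, rose by 1.49 (0.00097) and 1.09 (0.0064). Ccr7, a chemokine receptor whose spots were saturated on both arrays of each condition, was at least 2.33-fold higher with CD40.TLR2 (0.0038) and at least 1.71-fold higher with anti-CD40 (0.027). With CD40.TLR2, S1pr4 fell by 1.47 (0.0012), Cxcr4 by 0.57 (0.018) and Cd55 by 0.40 (0.040). With TLR2.CD86, Cxcr4 fell by 0.55 (0.035).

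Over all 6 lists, 12.8% of the 78 tested genes were called for TLR2.CD86 (0 higher, 10 lower), 30.8% for anti-CD40 (8 higher, 16 lower) and 38.5% for CD40.TLR2 (14 higher, 16 lower), and none for Pam2CSK4 or anti-CD86. The slide-blocked shares were 47.4% (17 higher, 20 lower), 59.0% (16 and 30) and 62.8% (21 and 28), with 14.1% for Pam2CSK4 (5 and 6) and 39.7% for anti-CD86 (15 and 16). The shares of all probes without the block were 10.6% for TLR2.CD86 (1072 higher, 2286 lower), 16.7% for anti-CD40 and 18.2% for CD40.TLR2. They were 0.136% for Pam2CSK4 and 2.14% for anti-CD86. Slide-blocked they were 34.9%, 37.1% and 47.4%, with 10.8% for Pam2CSK4 and 28.3% for anti-CD86. The list shares count only the brightest probe of each gene, and the other shares count all probes tested. The lists were also chosen with earlier results of these data known. The difference between the shares was not tested. The genes named from these lists had 56 called differences without the block, and 17 of them held when each array of their comparison was left out in turn, an alternative chosen after the values were seen. For CD40.TLR2 these were the 12 differences of Adam17, Aph1a, Ccr7, Cir1, Cxcr5, Dll3, Fcer2a, Hes5, Hey1, Myc, S1pr1 and S1pr4. For anti-CD40 they were the 5 of Aph1a, Dll3, Hes5, Myc and S1pr1, and for TLR2.CD86 none of the 10 held. Jag2 was the 1 gene among them whose value moved by over 1.5 times.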

How the data were processed

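RNA of 12 samples was labelled with Cy3 and hybridised by the authors to a custom mouse array. The deposited scanner files hold the processed signal intensity of Feature Extraction 10.5.1.1, corrected for background within each array. A series table of log2 values, also made by the authors, equalled the log2 intensity minus a constant per array close to its 75th percentile. The methods name a one-way test and do not name the normalization.

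Here, log2 processed intensity minus the array's 75th percentile was used, without control and outlier spots. The filter asked that both arrays of some condition be well above background, which 31667 of 61307 probes met. The 68 with a missing value were dropped, leaving 31599. limma 3.58.1 in R 4.3.3 fitted 1 coefficient per condition over 12 arrays, with Benjamini-Hochberg adjustment and calls at an adjusted p under 0.05. The test was tried on simulated data. Tables and figures used Python 3.11.15, numpy 2.4.6, pandas 2.3.3, matplotlib 3.10.9 and biopython 1.88. With 2 arrays per condition, their number limits the precision.

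A gene was given by its probe with the highest mean over 12 arrays, and a probe saturated or not well above background on all arrays of a condition has only a bound there. Named genes are the 10 members, up to 3 genes in each direction per list called for TLR2.CD86 or CD40.TLR2, and the 5 genes most like Notch2 before and after removal of slide means. The pathway, marker, marginal zone and follicular lists were written from general knowledge, and members and lists were chosen with earlier results of these data known. Of the B cell markers, 1 is not reported here. Alternatives were median and quantile normalization, normexp correction (offset 50) of mean signals, the deposited log2 table, no filter, the slide as a block, slide 1 alone, the labels' sample number as a block, only the groups compared, any probe of a gene, leaving out each array, and a one-way test without moderation. For named genes of the wider lists, leaving out each array was added after the values were seen. Promoter windows are from RefSeq (GRCm38.p6).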

Additional observations from a re-analysis of the deposited data

Results flagged for a closer look

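Notch2 is singled out because the slide-blocked fit, and not the fit without the block, called its interaction of anti-CD40 and Pam2CSK4. It was the 1 gene of 10 so called, where the slide-blocked test called 8.41% of all probes. Without the block 0 of 10 were called, against 1.15% of all probes. Blocked by slide, the interaction of anti-CD40 and Pam2CSK4 was 0.50 on the log2 scale (limma adjusted p = 0.026), and without the block it was 0.65 (adjusted p = 0.13). Pam2CSK4 alone gave -0.20 against unstimulated cells, anti-CD40 alone -0.73 and both together -0.28. CD40.TLR2 had no array on slide 2.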

How the results depend on the processing

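Median normalization called 0 genes in every comparison that had calls. It moved the log2 differences from unstimulated cells by -0.11 to -0.57, depending on the stimulation, and the median over the 10 genes of CD40.TLR2 against anti-CD40 from 0.020 to 0.48, since array medians relative to the 75th percentile ran from -3.94 to -2.80. The -2.80 was that of anti-CD40 array 2 alone, the next highest being -3.41, and the shift of -0.57 was that for anti-CD40. Without the filter on dim probes, 1 gene was called for CD40.TLR2 and 0 for TLR2.CD86, anti-CD40, the combined against single signals and the 6 conditions. Quantile normalization called 2 (anti-CD86), 5 (anti-CD40), 6 (CD40.TLR2) and 2 (combined against single), normexp 2, 5, 3 and 0, and the groups compared alone 0 (TLR2.CD86), 0 (anti-CD40), 8 (CD40.TLR2) and 0 (combined against single). Slide 1 alone called 4 for TLR2.CD86, 8 for CD40.TLR2, 3 for combined against single and 7 for the 6 conditions, and the slide block 2, 3, 4, 8, 9, 11, 1 and 9 over the 8 questions. The labels' sample numbers share only a number, since deviations correlated at -0.14 to 0.14 for pairs with unstimulated or CD40.TLR2 cells and at 0.65 to 0.81 otherwise. With them as a replicate block, 2 genes were called for anti-CD86, 6 for anti-CD40, 5 for CD40.TLR2, 2 for combined against single and 1 interaction. Leaving out 1 array gave 0 to 2 calls for TLR2.CD86, 0 to 5 for anti-CD40, 1 for CD40.TLR2, 0 to 1 for combined against single (0 where the array was part of the comparison, 1 where it was not and the Hes1 call was kept without a new fit), 0 for Pam2CSK4, anti-CD86 and the interactions, and 0 to 4 for the 6 conditions. No difference called without the block changed sign. That of Lfng with anti-CD40, which the slide-blocked fit called, did. The differences that changed sign, none called without the block, were for anti-CD86 Notch2 (quantile 0.061, slide block 0.043, slide 1 alone 0.012, median of probes 0.19), Notch1 (median normalization -0.077) and Rbpj (median normalization -0.012), and for TLR2.CD86 Notch2 (quantile 0.032, median of probes 0.024), Dtx1 (slide block 0.046, slide 1 alone 0.090), Mfng (0.071, 0.089) and S1pr3 (-0.076, -0.12, quantile -4.08e-05, median normalization -0.22). For Pam2CSK4 they were Mfng (slide block 0.043, slide 1 alone 0.0049) and S1pr3 (-0.037, -0.052, median normalization -0.085), and for anti-CD40 Rbpj (median normalization -0.45) and Lfng (-0.38, median of probes -0.21). Leaving out either array of the stimulated condition gave -0.074 to 0.012 for Notch2 (anti-CD86), -0.34 to 0.090 for Dtx1, -0.40 to 0.089 for Mfng and -0.12 to 0.26 for S1pr3 (TLR2.CD86), and -0.37 to 0.0049 for Mfng and -0.052 to 0.27 for S1pr3 (Pam2CSK4). The cause was not tested.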
